A study of Mus musculus with 12 samples.

Results

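The genes described here are 10 chains of cytokine receptors in mouse cytotoxic T lymphocytes (CTL): Il2ra, Il2rb, Il2rg, Il21r, Il4ra, Il12rb1, Il12rb2, Il18r1, Il18rap and Il10ra. They were chosen by gene symbol, and all 10 were found among the 11022 genes of the deposited expression table. RNA sequencing was run on 12 cultures of CTL from P14 mice, whose transgenic T cell receptor (TCR) recognises a peptide of lymphocytic choriomeningitis virus. The mice were female and 9 to 13 weeks old, and lymph nodes or spleens of 3 mice gave the 3 biological replicates. All cells were first activated for 48 h with the peptide in interleukin 2 (IL-2) and interleukin 12 (IL-12, at 2 ng/mL), were then grown for 5 days in IL-2, and stayed in 20 ng/mL IL-2 throughout, so that every group was exposed to the ligand of the IL-2 receptor. The groups, with 3 cultures each, were unstimulated CTL, CTL stimulated for 4 h with 100 ng/mL gp33-41 peptide (TCR), CTL stimulated in the same way with 10 µM IC87114, which blocks PI3K p110δ, a kinase of membrane lipids (TCR plus PI3Kdi), and CTL stimulated with 2 µM PD184252, an inhibitor of MEK, the kinase that activates ERK1/2 (TCR plus MEKi). DMSO was the vehicle. These are CTL expanded in culture that all carry 1 receptor specificity. In bulk RNA, fewer cells of a type and less RNA per cell cannot be told apart.

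Cytokine receptors of T cells are built from chains that several receptors share. Il2rg encodes the common gamma chain, which pairs with Il2ra and Il2rb in the high-affinity IL-2 receptor, with Il21r in the IL-21 receptor and with Il4ra in the type I IL-4 receptor. Il12rb1 and Il12rb2 together form the IL-12 receptor, and Il12rb1 also serves the IL-23 receptor. Il18r1 binds interleukin 18 and Il18rap is its accessory chain, both of the IL-1 receptor family that signals through Myd88. Il10ra is the ligand-binding chain of the IL-10 receptor. Apart from the IL-18 receptor, these receptors signal through Janus kinases (JAK) and STAT proteins.

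The chains whose values differ most between the groups, Il12rb2 and Il18r1, and the 2 pairs of receptor genes that lie next to each other on a chromosome (Il18r1 with Il18rap, and Il4ra with Il21r) are shown with the sequence upstream of their RefSeq start. Sequences are from the RefSeq table for GRCm38.p6, written 5′ to 3′ on the strand of the gene and limited to the longest stretch without an annotated exon of any gene. Of the 10 genes, 7 had a promoter window of 250 bases before to 50 bases after the start, and Il2rb, Il12rb1 and Il10ra had none. Capitals mark matches on either strand to one of 7 motifs: the AP-1 site TGANTCA, the STAT site GAS with the letters TTCNNNGAA, the NFAT core GGAAA, the EGR site GCGTGGGCG, the FOXO site GTAAACA, the RUNX core TGTGGT and the cAMP response element TGACGTCA. The Il12rb2 stretch lies on the minus strand at chr6:67376189-67376438.
Il12rb2: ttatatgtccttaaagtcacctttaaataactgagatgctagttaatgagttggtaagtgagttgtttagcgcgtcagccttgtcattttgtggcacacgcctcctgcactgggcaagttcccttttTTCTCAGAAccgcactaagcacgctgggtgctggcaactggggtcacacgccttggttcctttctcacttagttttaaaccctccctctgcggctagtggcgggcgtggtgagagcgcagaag
The Il18r1 stretch, chr1:40465416-40465551 on the plus strand, is the whole gap between Il18r1 and the gene before it, Il1rl1.
Il18r1: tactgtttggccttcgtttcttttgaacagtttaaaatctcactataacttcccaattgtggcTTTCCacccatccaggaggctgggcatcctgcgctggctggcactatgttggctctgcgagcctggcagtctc
Its neighbour Il18rap starts 14507 bases after the end of Il18r1, and the stretch shown is chr1:40515112-40515361 on the plus strand.
Il18rap: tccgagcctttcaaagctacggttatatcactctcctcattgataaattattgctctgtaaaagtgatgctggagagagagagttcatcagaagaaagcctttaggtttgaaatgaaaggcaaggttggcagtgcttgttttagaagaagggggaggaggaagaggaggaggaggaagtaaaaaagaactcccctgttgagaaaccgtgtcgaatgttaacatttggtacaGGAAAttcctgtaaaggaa
The RefSeq start of Il4ra lies within the GENCODE gene, so only the distal part of its window is shown. Il4ra (chr7:125552021-125552119, plus strand) and Il21r (chr7:125603179-125603428, plus strand) are 23954 bases apart.
Il4ra: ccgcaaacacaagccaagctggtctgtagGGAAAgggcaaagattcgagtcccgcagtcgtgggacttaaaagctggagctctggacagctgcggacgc
Il21r: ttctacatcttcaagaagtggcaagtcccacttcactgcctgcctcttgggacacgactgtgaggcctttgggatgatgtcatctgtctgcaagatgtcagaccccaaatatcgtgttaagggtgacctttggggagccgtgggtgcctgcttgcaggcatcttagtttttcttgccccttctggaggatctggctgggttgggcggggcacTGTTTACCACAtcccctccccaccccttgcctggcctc
The Il12rb2 window held 1 GAS match, 123 bases before the start, a motif found in 8.3% of all 32851 windows. Windows of Il18r1 and Il18rap each held 1 NFAT match, that of Il4ra held 2, of which 1 is in the stretch shown, and 61.3% of all windows held at least 1. In Il21r a FOXO match (3.65% of windows) overlapped a RUNX match (16.8% of windows) by a few letters. None of the 7 windows held an AP-1 (7.81% of all windows), EGR (0.612%) or cAMP (1.79%) match. A match is a description of the letters only.

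The values are FPKM (fragments per kilobase of exon, relative to the depth of the library) from TMM-scaled counts, given below as the value in cultures 1, 2 and 3 of a group or as mean ± SD with n = 3. Differences are log2 fold changes of FPKM + 0.1 with their standard error (SE), from a limma fit to all 11022 genes and 12 cultures, and adjusted p is the Benjamini-Hochberg value over all genes. The CTL identity was checked first: all 9 CTL markers were present, none of 5 B cell markers was in the table, and of 6 myeloid, 4 dendritic and 2 NK cell markers only Cd68, Zbtb46 and Klrb1c were. Cd3d had 209 to 221 FPKM in every group mean, but 5 of the 9 CTL markers rose with TCR and 2 fell, beside 33.6% and 34.9% of all genes. With quantile normalisation 4 rose and 5 fell, and with every culture rescaled to the same total 5 rose and 4 fell. The perforin gene Prf1 was among those that rose, at 655 FPKM in unstimulated CTL, 1471 with TCR, 1249 with PI3Kdi and 937 with MEKi. Zbtb46 moved with stimulation, from 0.02 to 0.03 FPKM in unstimulated cultures to 3.27 to 3.63 with TCR, as did Klrb1c, from 4.58 to 6.23 down to 1.63 to 1.88. Of 3 CD4 T cell markers 2 were in the table, with a summed FPKM of 9.90 to 11.25 in the MEKi cultures and 5.27 to 9.31 in the others. Cd4 had group means of 0.773, 2.69, 2.94 and 0.450 FPKM in unstimulated, TCR, PI3Kdi and MEKi cultures, and Zbtb7b of 7.37, 5.29, 3.92 and 9.95. Cd68 lay between 4.88 and 8.44 in all. The part of these markers in the results below was not tested. The total FPKM per culture was higher with TCR (620710 to 666920) than in unstimulated cells (470420 to 495950). Rescaling every culture to the same total, the TPM scale, therefore shifted the median log2 change of all genes to -0.41 for TCR against unstimulated, 0.19 for PI3Kdi against TCR and 0.26 for MEKi against TCR. Shares of all genes at an adjusted p under 0.05 are given below for the FPKM without this rescaling only. Counts on the TPM scale, or by unadjusted p, have no such share beside them.

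All 10 chains were well expressed, from 13.1 FPKM (Il10ra in an unstimulated culture) to 650 FPKM (Il2rb in another). In unstimulated CTL Il2rb stood highest, at rank 124 of the 11022 genes, and Il10ra lowest, at rank 4817, still above 56.3% of all genes. The 3 chains of the IL-2 receptor were the highest of the 10 in all 4 groups. Because FPKM is a level per length of exon, it allows this comparison between genes.

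**Figure D1:**
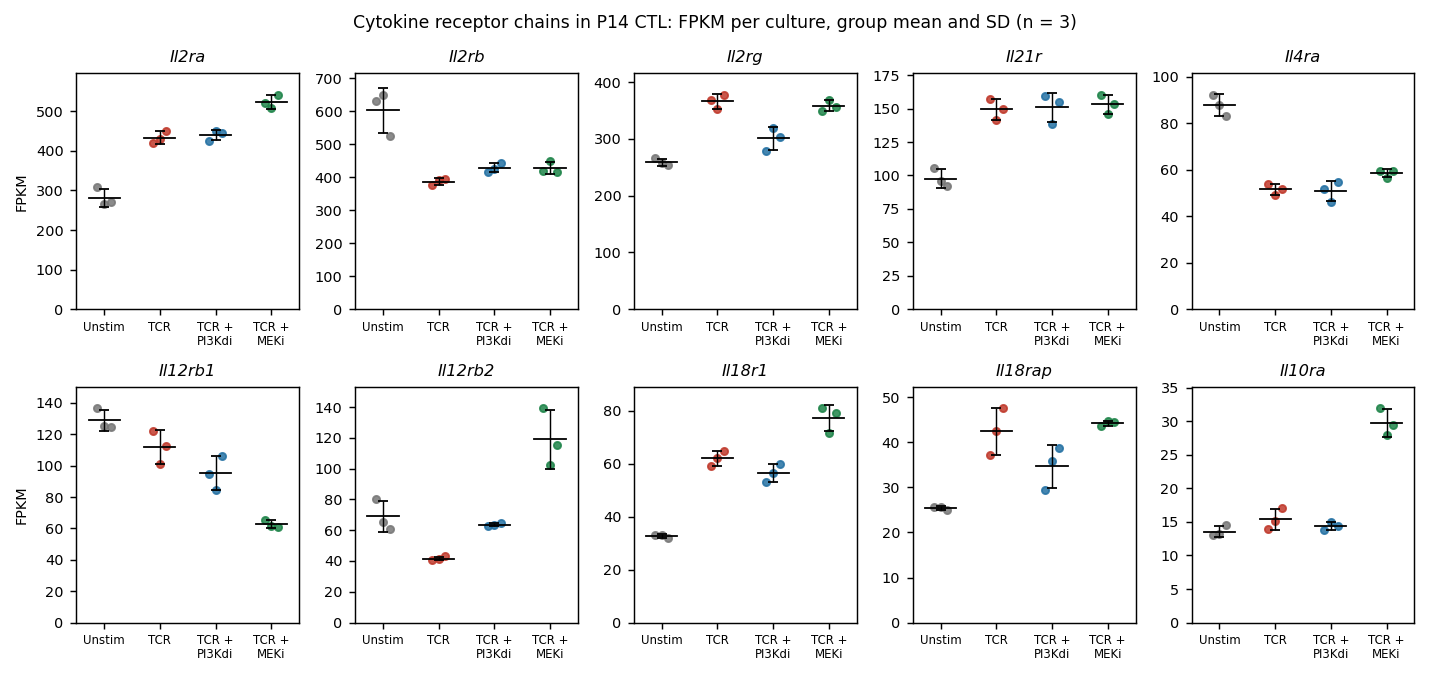
FPKM of the 10 receptor chains in each of the 12 cultures (points), with the group mean (line) and SD (error bar, n = 3), 1 panel per gene with its own axis from 0. Il12rb2 and Il10ra are highest and Il12rb1 lowest with MEKi, while Il2rb and Il4ra are highest in unstimulated CTL.

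The first question is what antigen does to the receptors that CTL use to sense cytokines. TCR stimulation changed 9 of the 10 chains at an adjusted p under 0.05, 5 upward (Il18r1, Il18rap, Il2ra, Il21r and Il2rg) and 4 downward (Il4ra, Il12rb2, Il2rb and Il12rb1). Of all genes, 33.6% rose and 34.9% fell by the same criterion, so a share of this size is common in the table. None of the 10 passed the 2-fold threshold as well (limma), which 20% of all genes did, although all 10 had an unadjusted p under 0.05. With quantile normalisation 1 chain passed it, beside 2137 of all genes, and on the TPM scale 3 did, beside 2923 of all genes. The median log2 change of the 10 was 0.34, beside -0.01 over all genes. It was -0.07 on the TPM scale, beside -0.41 over all genes, and there 4 chains rose and 5 fell, with no share of all genes taken. On that scale the rises of Il18r1, Il18rap, Il2ra and Il21r were 0.51, 0.32, 0.21 and 0.20, and the falls of Il4ra, Il12rb2 and Il2rb, at -1.18, -1.13 and -1.05, passed 2-fold. The fall of Il12rb1 was then -0.62. The share of the TCR-driven change that remained with an inhibitor was to be computed for chains past 2-fold, of which there were none.

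Among the chains of the IL-2 receptor, the alpha chain Il2ra (Entrez gene 16184, chr2:11642807-11693193, positions of whole genes in GENCODE M21 on mm10), which raises the affinity of the receptor, had 308, 265 and 271 FPKM in the unstimulated cultures and 420, 430 and 451 FPKM with TCR. All TCR cultures lay above all unstimulated ones (log2 fold change 0.63, SE 0.06, adjusted p = 3.02e-07), a rise of 0.27 with quantile normalisation. With PI3Kdi the values were 426, 449 and 445 FPKM and with MEKi 521, 508 and 542 FPKM. The PI3Kdi cultures overlapped those with TCR (log2 change 0.02, 95% interval -0.11 to 0.15, and 0.20 with adjusted p = 0.0293 on the TPM scale), whereas the MEKi cultures were above all others. The rise with MEKi over TCR was 0.27 on the log2 scale (SE 0.06, adjusted p = 0.00287).

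The signalling chain Il2rb (16185, chr15:78479256-78495271), shared by the IL-2 and IL-15 receptors, went the other way. It had 632, 650 and 524 FPKM in unstimulated CTL, 376, 391 and 394 with TCR, 416, 426 and 443 with PI3Kdi, and 419, 448 and 416 with MEKi. The unstimulated cultures were all above the stimulated ones, with or without an inhibitor, and TCR lowered Il2rb by 0.63 on the log2 scale (log2 fold change -0.63, SE 0.07, adjusted p = 1.62e-06). Both inhibitor groups lay above the TCR cultures without overlap, but neither difference passed the test in this fit. The log2 difference was 0.15 for PI3Kdi (adjusted p = 0.147) and 0.15 for MEKi (adjusted p = 0.125). Both passed on the TPM scale, at 0.33 (adjusted p = 0.00599) and 0.41 (adjusted p = 0.000712), as they did with quantile normalisation (adjusted p = 0.0458 and 0.00856).

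Il2rg (16186, chrX:101264378-101268255), the common gamma chain, rose with TCR from 266, 257 and 255 FPKM to 368, 353 and 378 FPKM, without overlap. The log2 fold change was 0.50 (SE 0.06, adjusted p = 1.46e-06). On the TPM scale this rise was 0.09 (adjusted p = 0.235). In PI3Kdi the cultures had 280, 320 and 304 FPKM, between the unstimulated and the TCR cultures and overlapping neither. Il2rg fell by 0.28 relative to TCR (log2 fold change -0.28, SE 0.06, adjusted p = 0.00192), a fall that was -0.10 (adjusted p = 0.211) on the TPM scale and -0.11 (adjusted p = 0.265) with quantile normalisation. The MEKi cultures, at 350, 369 and 357 FPKM, overlapped the TCR cultures (log2 change -0.03, 95% interval -0.15 to 0.09, and 0.23 with adjusted p = 0.00633 on the TPM scale). A readthrough gene, Gm20489, which is not in the table, overlaps 30.5% of the exon bases of Il2rg.

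The specific chains of the IL-21 and IL-4 receptors, neighbours on chromosome 7, moved in opposite directions. Il21r (60504, chr7:125603429-125633570) had 105, 95.5 and 92.0 FPKM in unstimulated CTL and 157, 142 and 150 with TCR, which did not overlap (log2 fold change 0.62, SE 0.07, adjusted p = 1.15e-06). With PI3Kdi it had 159, 139 and 155 FPKM and with MEKi 160, 146 and 153 FPKM. The 3 stimulated groups overlapped, with log2 changes from TCR of 0.01 (95% interval -0.13 to 0.16) for PI3Kdi and 0.03 (95% interval -0.11 to 0.18) for MEKi. These changes were 0.20 (adjusted p = 0.0323) and 0.30 (adjusted p = 0.00176) on the TPM scale.

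Il4ra (16190, chr7:125552120-125579474), by contrast, had 92.4, 88.0 and 83.0 FPKM in unstimulated CTL and 53.9, 49.3 and 51.7 with TCR. The groups were separate, and the fall of 0.76 on the log2 scale (log2 fold change -0.76, SE 0.07, adjusted p = 7.28e-08) was the largest downward change with TCR among the 10 chains in this fit. The PI3Kdi cultures (51.9, 46.2 and 54.6 FPKM) overlapped the TCR cultures, with a log2 change of -0.02 (95% interval -0.16 to 0.12). In MEKi the values were 59.4, 56.6 and 59.7 FPKM, above every TCR culture and below every unstimulated one. This small difference from TCR passed the test (log2 fold change 0.18, SE 0.07, adjusted p = 0.0405), but leaving out 1 culture took the adjusted p to between 0.0362 and 0.134.

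Il12rb2 (16162, chr6:67291318-67376188), the IL-12 receptor chain that recruits Stat4, had the largest ratio between its highest and lowest group means of the 10. It was at 80.5, 65.4 and 61.1 FPKM in unstimulated CTL, 40.8, 41.0 and 43.0 with TCR, 62.9, 63.2 and 64.5 with PI3Kdi, and 139, 102 and 115 with MEKi. The TCR cultures were below all others and the MEKi cultures above all others, while the PI3Kdi cultures lay within the range of the unstimulated ones. TCR lowered Il12rb2 (log2 fold change -0.72, SE 0.10, adjusted p = 1.87e-05). Relative to TCR, it rose by 0.61 with PI3Kdi (SE 0.10, adjusted p = 0.000627) and by 1.5 with MEKi (SE 0.10, adjusted p = 8.12e-08), a ratio of means of 2.86. Between PI3Kdi and unstimulated cells the log2 change was -0.11 (95% interval -0.33 to 0.11), and MEKi against unstimulated it was 0.78 (adjusted p = 1.13e-05). The first of these was -0.34 (adjusted p = 0.0147) on the TPM scale. On the opposite strand, Serbp1 covers 40.0% of the exon bases of Il12rb2, and the sources used here do not say if reads were counted by strand. Serbp1 was at 130 ± 13.3, 133 ± 1.02, 121 ± 4.51 and 124 ± 1.66 FPKM in the same order of groups, with log2 changes of 0.04 (adjusted p = 0.625) for TCR, -0.14 (adjusted p = 0.122) for PI3Kdi and -0.10 (adjusted p = 0.221) for MEKi.

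Its partner Il12rb1 (16161, chr8:70808449-70821424) was lowest where Il12rb2 was highest. The cultures had 137, 126 and 124 FPKM without stimulation, 122, 101 and 113 with TCR, 94.9, 84.6 and 106 with PI3Kdi, and 65.7, 61.5 and 60.9 with MEKi. The MEKi cultures were below all others, the unstimulated ones were above all others, and TCR and PI3Kdi overlapped. The fall with MEKi relative to TCR was -0.83 (SE 0.08, adjusted p = 2.78e-06), and relative to unstimulated CTL it passed 2-fold (log2 fold change -1.04, SE 0.08, adjusted p = 4.66e-08). The smaller fall with TCR alone (log2 fold change -0.21, SE 0.08, adjusted p = 0.0356) ranged in adjusted p from 0.012 to 0.172 when 1 culture was left out. PI3Kdi against TCR gave -0.23 (SE 0.08, adjusted p = 0.0502), which passed with replicate number as a block (adjusted p = 0.0207) and was -0.05 on the TPM scale.

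Both chains of the IL-18 receptor rose with TCR. Il18r1 (16182, chr1:40465552-40500854) went from 33.1, 33.0 and 31.9 FPKM to 59.1, 62.0 and 64.9 FPKM. This was the largest rise with TCR of the 10, and the groups did not overlap (log2 fold change 0.92, SE 0.06, adjusted p = 4.49e-09). With PI3Kdi it had 53.2, 56.4 and 59.9 FPKM and with MEKi 81.0, 71.5 and 79.1 FPKM. The MEKi cultures were separate from and above the TCR cultures (log2 fold change 0.31, SE 0.06, adjusted p = 0.00116), and the PI3Kdi cultures overlapped the TCR cultures (log2 change -0.14, adjusted p = 0.123, and 0.05 on the TPM scale). Taken by replicate number, the PI3Kdi culture was the lower one each time, and the adjusted p with replicate number as a block was 0.117. Against unstimulated CTL, Il18r1 with MEKi was past 2-fold (log2 fold change 1.24, SE 0.06, adjusted p = 2.55e-10).

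Il18rap (16174, chr1:40515362-40551705) had 25.7, 25.7 and 24.9 FPKM in unstimulated CTL and 37.1, 42.6 and 47.6 with TCR, groups that did not overlap (log2 fold change 0.73, SE 0.10, adjusted p = 7.19e-06). With PI3Kdi, at 29.4, 36.0 and 38.8 FPKM, it overlapped TCR and passed the test (log2 fold change -0.29, SE 0.10, adjusted p = 0.0361). That call did not hold on the TPM scale (log2 change -0.11, adjusted p = 0.45), with quantile normalisation (adjusted p = 0.111) or without some of the cultures (adjusted p from 0.011 to 0.155), and with replicate number as a block the adjusted p was 0.0151. With MEKi, Il18rap had 43.6, 44.7 and 44.5 FPKM, within the range of the TCR cultures (log2 change 0.07, 95% interval -0.14 to 0.27, and 0.33 with adjusted p = 0.0213 on the TPM scale).

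Il10ra (16154, chr9:45253837-45269149), the lowest of the 10, was the chain with the largest difference between the 2 inhibitors. It had 13.1, 13.1 and 14.5 FPKM in unstimulated CTL, 13.97, 15.1 and 17.1 with TCR, 13.8, 14.97 and 14.4 with PI3Kdi, and 32.0, 28.0 and 29.4 with MEKi. The first 3 groups overlapped, and every MEKi culture was above every other culture. TCR against unstimulated gave 0.18 (SE 0.08, adjusted p = 0.0624) and, on the TPM scale, -0.23 (adjusted p = 0.0348). PI3Kdi against TCR gave -0.09 (adjusted p = 0.425). MEKi raised Il10ra by 0.95 relative to TCR (SE 0.08, adjusted p = 6.77e-07) and by 1.04 relative to PI3Kdi (SE 0.08, adjusted p = 3.04e-07), and by 1.13 relative to unstimulated CTL (SE 0.08, adjusted p = 1.57e-08).

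**Figure D2:**
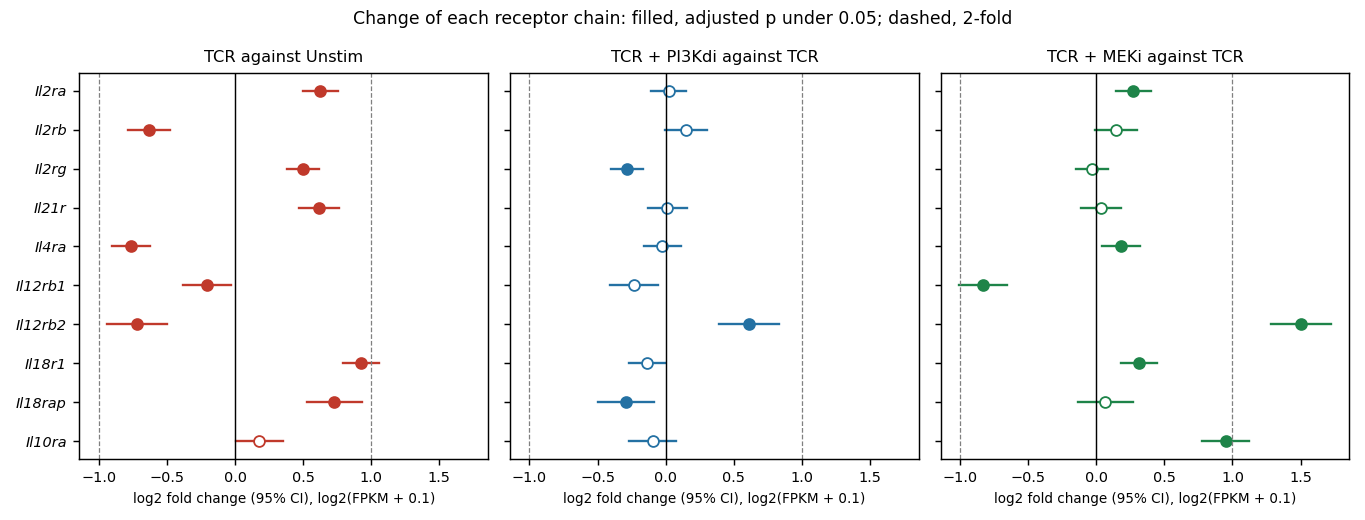
Log2 fold change of each receptor chain (x axis, log2 of FPKM + 0.1) with its 95% confidence interval in 3 comparisons, filled where the adjusted p is under 0.05, with dashed lines at 2-fold. Il12rb2 with MEKi, at 1.5, is the only point of the 3 panels beyond 2-fold.

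The PI3K comparison asked which chains differ when PI3K p110δ is blocked during stimulation. No group had an inhibitor without peptide, and all cultures held IL-2. An effect of an inhibitor on the TCR response and one on signalling without peptide therefore cannot be told apart. PI3Kdi changed 3 of the 10 chains relative to TCR at an adjusted p under 0.05. Il12rb2 was higher, and Il2rg and Il18rap were lower. Among all genes 12.7% were higher and 12.8% lower, and 1.88% also passed 2-fold, which none of the 10 did (limma, with 5 of the 10 at an unadjusted p under 0.05 and 0 called in every alternative run). The median log2 change of the 10 was -0.06, beside 0.02 over all genes. On the TPM scale 4 chains were higher and none lower. The share of all genes was not taken there, and their median was itself 0.19. With the block, Il12rb1 joined the chains that fell. Against unstimulated CTL, the cells with peptide and PI3Kdi had 5 chains higher and 3 lower, where 31.7% and 30.8% of all genes were. None was past 2-fold (limma, 8 of 10 at an unadjusted p under 0.05), where 14.6% of genes were. On the TPM scale 1 chain was called, beside 1895 of all genes.

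The MEK comparison asked the same with MEK blocked, with the same limit. MEKi changed 6 of the 10 chains relative to TCR, 5 upward (Il12rb2, Il10ra, Il18r1, Il2ra and Il4ra) and 1 downward (Il12rb1). The shares of all genes were 18.9% higher and 18.2% lower. Il12rb2 passed 2-fold, as did 3.49% of all genes. The median log2 change of the 10 was 0.16, beside 0.01 over all genes. On the TPM scale 9 chains were higher and 1 lower. The share of all genes was not taken there, and their median was itself 0.26, so this count cannot be set against the table. Il10ra was the second to pass 2-fold on that scale, where 525 of all genes passed it, and also without TCR culture 3. Both comparisons use the same TCR cultures.

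MEKi and PI3Kdi were also compared directly. The MEKi cultures had 7 chains higher (Il10ra, Il12rb2, Il18r1, Il18rap, Il2rg, Il2ra and Il4ra) and 1 lower (Il12rb1), where 14.5% and 14.4% of all genes were higher and lower, while Il2rb and Il21r gave log2 changes of -0.00 (95% interval -0.15 to 0.15) and 0.02 (95% interval -0.12 to 0.17). Il10ra passed 2-fold, as 3.09% of genes did, a call lost with a pseudocount of 1, in limma's test against 2-fold (treat) and without MEKi culture 1. Il12rb2 was higher by 0.89 (SE 0.10, adjusted p = 1.47e-05) and Il12rb1 lower by 0.60 (log2 fold change -0.60, SE 0.08, adjusted p = 7.57e-05). Against unstimulated CTL, cells with peptide and MEKi had 7 chains higher and 3 lower, beside 28.9% and 30.7% of all genes, and 3 passed 2-fold (Il18r1, Il10ra and Il12rb1), beside 13.4% of all genes. Il10ra did not on the TPM scale (0.98), nor did Il12rb1 without unstimulated culture 1.

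The order of the 4 group means differed from chain to chain. Il2ra, Il18r1, Il18rap, Il21r, Il12rb2 and Il10ra were highest with MEKi, Il2rb, Il4ra and Il12rb1 in unstimulated CTL, and Il2rg with TCR. PI3Kdi and TCR were neighbours in 8 of these orders, and their difference passed the test in Il12rb2 and Il18rap but not in Il2ra, Il12rb1, Il18r1, Il21r, Il10ra or Il4ra. TCR and MEKi were neighbours in 6, with a difference that passed the test in Il18r1, Il10ra and Il4ra and did not in Il2rb, Il2rg and Il18rap. Il12rb2 alone had the order MEKi, unstimulated, PI3Kdi, TCR, in which only unstimulated and PI3Kdi did not differ by the test (adjusted p = 0.369).

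Since partner chains work together, their ratio was taken within each culture, where it does not depend on how a culture was scaled. Il12rb2 over Il12rb1 was 0.533 ± 0.050 in unstimulated CTL, 0.374 ± 0.037 with TCR, 0.672 ± 0.070 with PI3Kdi and 1.89 ± 0.23 with MEKi. The MEKi cultures, at 2.12, 1.66 and 1.89, were the ones in which Il12rb2 exceeded Il12rb1. The level of this ratio depends on how reads in the Il12rb2 exon bases shared with Serbp1 (40.0%) were counted, which is not known. Relative to TCR the ratio was 5.05-fold higher with MEKi and 1.80-fold higher with PI3Kdi, and the groups did not overlap. By the exact permutation test over cultures each of these had p = 0.1, two-sided, the smallest value that 3 against 3 can give. Adjusted over the 15 tests of 5 pairs and 3 comparisons it was 0.125, so no ratio could pass the threshold with this test.

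Il2ra over Il2rb rose from 0.471 ± 0.056 in unstimulated CTL to 1.12 ± 0.02 with TCR, and was 1.03 ± 0.03 with PI3Kdi and 1.23 ± 0.09 with MEKi. In all 9 stimulated cultures Il2ra exceeded Il2rb, and in none of the unstimulated ones did it. Il2rb over Il2rg was 2.32 ± 0.24 without stimulation, 1.06 ± 0.04 with TCR, 1.43 ± 0.08 with PI3Kdi and 1.19 ± 0.02 with MEKi, 4 groups without overlap.

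Il21r over its neighbour Il4ra was 1.11 ± 0.03 in unstimulated CTL and 2.90 ± 0.02, 2.97 ± 0.12 and 2.61 ± 0.08 with TCR, PI3Kdi and MEKi. The TCR and PI3Kdi cultures overlapped (exact permutation p = 0.4), and the MEKi cultures were below both. Il18rap over Il18r1 had the narrowest range over the 4 groups, from 0.779 ± 0.003 to 0.683 ± 0.053 with TCR, 0.612 ± 0.052 with PI3Kdi and 0.575 ± 0.045 with MEKi. All 12 cultures had more Il18r1 than Il18rap.

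**Figure D3:**
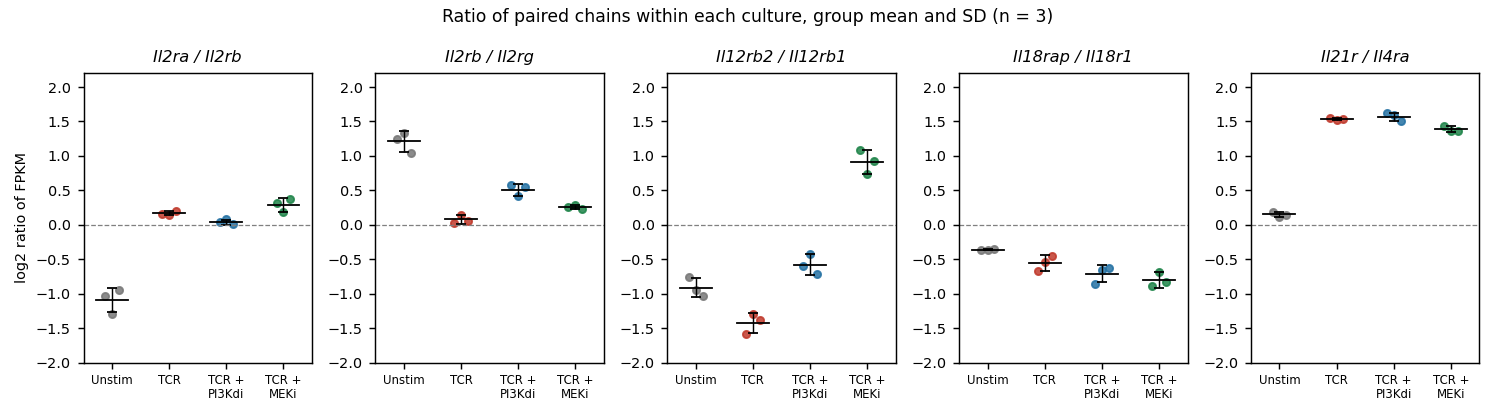
Log2 ratio of the FPKM of 2 receptor chains within each culture (points), with group mean and SD (n = 3) and a dashed line at equal levels. Il12rb2 over Il12rb1 crosses the line in the MEKi cultures, and Il2ra over Il2rb crosses it in all stimulated cultures.

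The rest of the pathway was read from lists of other receptor chains, ligands, signalling genes and feedback inhibitors. Of 47 other cytokine receptor chains, 22 were in the table. With TCR 7 rose and 8 fell at an adjusted p under 0.05 (median log2 change -0.10), beside 33.6% and 34.9% of all genes, and 5 and 4 did so past 2-fold, beside 20% in either direction. The decoy receptor Il1r2 rose from 1.76 ± 0.25 to 59.2 ± 6.84 FPKM, Il1rl1, which binds interleukin 33, from 2.89 ± 0.38 to 23.1 ± 3.56 and their accessory chain Il1rap from 1.59 ± 0.08 to 6.95 ± 0.56, whereas Ifngr2, of the interferon gamma receptor, fell from 3.85 ± 0.47 to 0.560 ± 0.243. Il10rb, the partner of Il10ra, was past 2-fold lower in all 3 stimulated groups than in unstimulated cells. It had 28.5 ± 1.90 FPKM without stimulation, 6.91 ± 0.51 with TCR, 9.74 ± 0.09 with PI3Kdi and 7.40 ± 0.32 with MEKi. In MEKi, Il10ra and Il10rb thus had different orders, Il10ra being highest there and Il10rb close to its level with TCR (log2 change 0.10, adjusted p = 0.331).

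With PI3Kdi 4 of the 22 other chains were higher and 7 lower than with TCR, beside 12.7% and 12.8% of all genes. Among chains whose mean reached 1 FPKM in either group, 2 passed 2-fold: Ifngr1, at 50.1 ± 1.24 FPKM with TCR and 115 ± 3.57 with PI3Kdi, and Il1r2, which was 28.6 ± 2.46. Ifngr1 was highest in unstimulated CTL, at 195 ± 6.45 FPKM, and had 96.3 ± 2.69 with MEKi, so both inhibitor groups lay between the unstimulated and TCR cultures. With MEKi 3 were higher and 6 lower, beside 18.9% and 18.2% of all genes, and by the same rule those past 2-fold were Il1r2, at 19.6 ± 2.76 FPKM, and Il7r, the IL-7 receptor chain that pairs with Il2rg, which rose from 10.2 ± 0.25 to 22.9 ± 2.90, a change past 2-fold (log2 fold change 1.15, SE 0.15, adjusted p = 4.22e-05). Il13ra1, a chain of the IL-13 receptor under 1 FPKM in every culture, also passed 2-fold with TCR (0.0467 ± 0.0252 to 0.587 ± 0.225 FPKM) and fell with PI3Kdi (0.200 ± 0.035) and MEKi (0.197 ± 0.051). On the TPM scale the counts were 5 higher and 12 lower for TCR, 6 and 4 for PI3Kdi, and 8 and 4 for MEKi. Il15ra, which completes the IL-15 receptor and lies next to Il2ra, was at 8.95 to 9.79 FPKM in the group means and passed no test among the 3 main comparisons (adjusted p from 0.342 to 0.742).

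Of 13 genes for ligands of these receptors or proteins that bind those ligands, 7 were in the table. Il2, Il10, Il13, Il21 and Il23a rose past 2-fold with TCR, and Il18bp, which binds and blocks interleukin 18, fell (log2 fold change -0.97, SE 0.17, adjusted p = 0.000117). Il2 went from 0.0633 ± 0.110 FPKM to 705 ± 57.3, and Il10 from 122 ± 27.4 to 3545 ± 302, while Il13 (13.3 ± 1.93 with TCR) and Il21 (8.35 ± 0.88) were listed at 0 in all unstimulated cultures. All 5 were lower with PI3Kdi, past 2-fold, and with MEKi, where Il2, Il10 and Il13 passed 2-fold. Of all genes, 33.6% rose with TCR, 12.8% were lower with PI3Kdi and 18.2% lower with MEKi at an adjusted p under 0.05. Past 2-fold in either direction were 20%, 1.88% and 3.49% in the same order. Il10 fell short of 2-fold with PI3Kdi on the TPM scale (log2 fold change -0.93) and, with quantile normalisation, with PI3Kdi (-0.81) and MEKi (-0.92). Il2 was 87.3 ± 24.1 with PI3Kdi and 50.7 ± 17.1 FPKM with MEKi, and Il10 was 1634 ± 130 and 1437 ± 134. Il10 mRNA with MEKi was therefore lower than with TCR in the cultures in which Il10ra was highest. Il18, the ligand of Il18r1, passed no test in these 3 comparisons (adjusted p from 0.334 to 0.825).

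All 18 genes of the JAK, STAT and adaptor list were in the table. With TCR 10 rose and 5 fell, where 33.6% and 34.9% of all genes did. Stat5a, which transmits signals of the IL-2 receptor, was raised from 11.7 ± 0.62 FPKM in unstimulated CTL to 124 ± 4.00, a log2 fold change of 3.40 (SE 0.05, adjusted p = 3.51e-16), Jak2 from 25.3 ± 2.75 to 121 ± 14.5 and Irs2 from 0.333 ± 0.085 to 2.14 ± 0.16. With PI3Kdi 3 were higher and 5 lower than with TCR (12.7% and 12.8% of all genes), and only Irs2 passed 2-fold (4.73 ± 0.74 FPKM). Stat5a, just short of 2-fold, had 62.2 ± 2.80 FPKM with PI3Kdi, and it had 92.6 ± 0.74 with MEKi. With MEKi 8 were higher and 3 lower (18.9% and 18.2% of all genes). Stat3, which acts downstream of the IL-10 and IL-21 receptors, was at 100 ± 2.28 FPKM with TCR and at 205 ± 0.95 with MEKi, a log2 fold change of 1.03 (SE 0.05, adjusted p = 3.93e-09), and Jak2 fell to 55.7 ± 2.00. On the TPM scale the counts were 8 and 8 for TCR, 7 and 4 for PI3Kdi, and 14 and 2 for MEKi. Stat4, used by the IL-12 receptor, was 28.3 ± 2.39, 36.0 ± 1.39, 45.9 ± 2.68 and 37.4 ± 1.18 FPKM in unstimulated, TCR, PI3Kdi and MEKi cultures. It rose with TCR (log2 fold change 0.35, SE 0.07, adjusted p = 0.000316) and was higher again with PI3Kdi (0.35 above TCR, adjusted p = 0.00172), and did not pass the test between MEKi and TCR (adjusted p = 0.569, and 0.00125 on the TPM scale, with a log2 change of 0.31). Stat4 and Il15ra are named for their receptors, not for the size of their change, and were chosen after their values were seen, as were Il18 and Il10rb with MEKi.

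The 11 feedback inhibitors were all in the table. With TCR 7 rose and 3 fell, beside 33.6% and 34.9% of all genes, with Socs1 (79.5 ± 4.50 to 24.3 ± 3.13 FPKM) and Socs2 (25.3 ± 1.21 to 9.85 ± 1.02) past 2-fold. With PI3Kdi none was higher and 5 were lower than with TCR, and with MEKi 4 were higher and 3 lower, beside 12.7% and 12.8%, and 18.9% and 18.2%, of all genes. On the TPM scale the counts were 3 and 3 for TCR, 1 and 3 for PI3Kdi, and 5 and 1 for MEKi. Ptpn6, the phosphatase SHP-1, was at 20.8 ± 0.11, 30.7 ± 2.43, 20.0 ± 1.35 and 70.0 ± 4.88 FPKM in the 4 groups, and its rise with MEKi over TCR passed 2-fold (log2 fold change 1.19, SE 0.07, adjusted p = 2.23e-08). Socs1 was 15.8 ± 3.17 with PI3Kdi and 48.0 ± 3.16 with MEKi, a difference past 2-fold. The median log2 change of this list was 0.37 for TCR and -0.15 for PI3Kdi, and on the TPM scale it was -0.04 and 0.03.

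**Figure D4:**
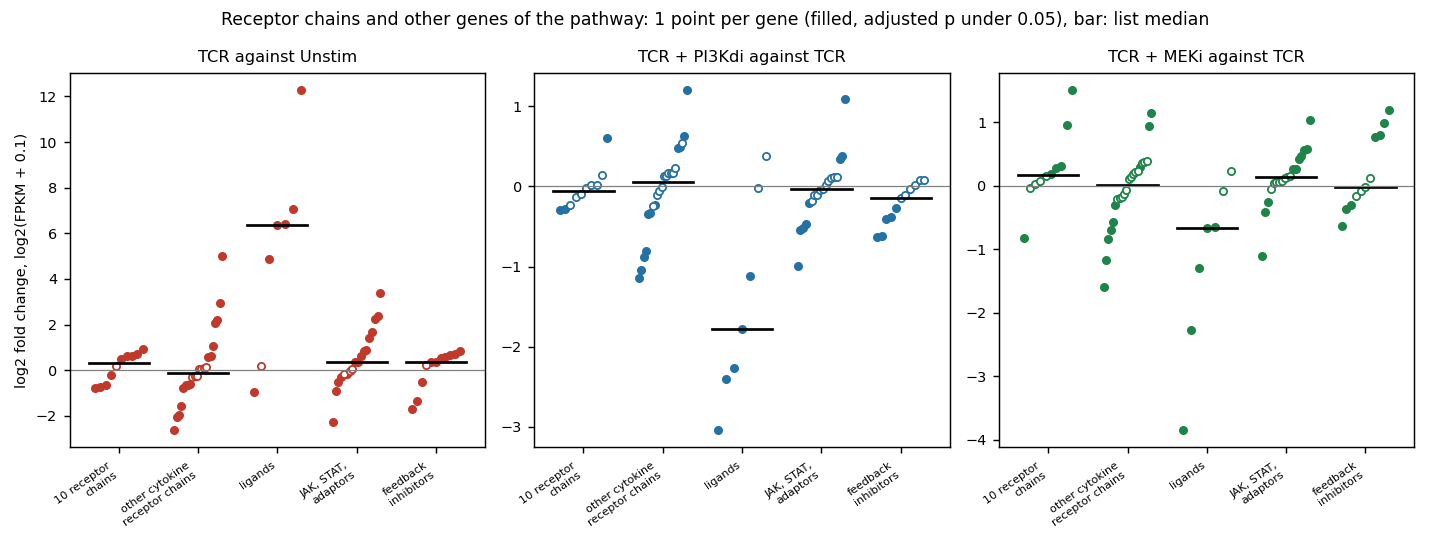
Log2 fold change (log2 of FPKM + 0.1) of each gene in 5 lists, ordered by value within a list, in 3 comparisons with their own axes, filled where the adjusted p is under 0.05. The bar is the list median. It is 0.34, -0.06 and 0.16 for the 10 receptor chains. For the 7 genes under ligands, which include the binding protein Il18bp, it is -1.78 with PI3Kdi and -0.67 with MEKi. Il13 and Il21, listed at 0 in unstimulated CTL, are drawn at a fitted value in the first panel that depends on the added 0.1.

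For the 4 chains past 2-fold in a comparison, the genes most like them were sought by the Pearson correlation of log2(FPKM + 0.1) over the 12 cultures among 9899 genes with a mean FPKM of at least 1. The cultures fall into 4 groups and share their scaling, so these values describe a likeness of group levels. Il12rb2 was most like Fam53c (r = 0.981) and Gbp5 (r = 0.977), which had 7.63, 4.48, 7.36 and 14.3 FPKM in unstimulated, TCR, PI3Kdi and MEKi cultures. Il12rb1 was most like Ltb (r = 0.963), at 46.6, 41.0, 30.9 and 18.8 FPKM, and Snai3 (r = 0.952). Il18r1 came closest to Papd7 (r = 0.992) and Fam129a (r = 0.990), and Il10ra to Akap1 (r = 0.973) and Dstn (r = 0.963).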

How the data were processed

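RNA from 12 CTL cultures (4 groups of 3) was sequenced by the authors as stranded mRNA libraries. Per the paper's methods and the submitters' processing notes, the authors aligned reads to mm10 with STAR 2.4.2a, counted them over RefSeq genes with Subread 1.5.0, removed low genes, scaled by TMM and computed FPKM in edgeR. The deposited table holds these FPKM values, to 2 decimals, for 11022 genes. Columns were matched to samples by name. Replicates are described as biological, but whether equal numbers mark 1 mouse is not stated, and p-values measure the spread between these samples only.

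FPKM was analysed as log2(FPKM + 0.1) in limma 3.58.1 (R 4.3.3), with a mean per group, all 12 samples, trended empirical Bayes and Benjamini-Hochberg adjustment over all genes. A gene was called at an adjusted p under 0.05 and a change over 2-fold. The study itself tested counts. No count test was used here: low values did not resolve into whole reads (44.4% to 66.2% of 34 to 85 low values per culture lay within 0.15 of one). A rough estimate of depth was 7760000 to 13260000 reads per culture, and 440 to 30190 reads per receptor chain. Within groups the lowest correlation between cultures was 0.992, and 2 to 73 genes per culture were at 0.

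Ratios of partner chains were compared by exact two-sided permutation tests (SciPy 1.17.1). Alternatives were pseudocounts of 1 and 0.01, a filter on mean FPKM of at least 1, no trend, only the compared groups, quantile normalisation, the TPM scale, a test against 2-fold (treat), a replicate block and leaving out each culture. Equal replicate numbers deviated together in every pair (r over 9899 genes) for PI3Kdi against TCR (0.239 to 0.451), MEKi against TCR (0.122 to 0.182), MEKi against PI3Kdi (0.137 to 0.149) and MEKi against unstimulated (0.117 to 0.147). In TCR against unstimulated (0.0037 to 0.153) equal numbers also had the highest r, though it was near 0 for replicate 3. This did not hold for replicates 1 and 3 in PI3Kdi against unstimulated (-0.0615 to 0.114). The fit was tested on simulated data. The named list genes were taken from the up to 4 largest changes past 2-fold per list and comparison, among genes whose mean reached 1 FPKM in either group. Il13ra1, below that level, was named after its values were seen. 1 result that this rule names is not reported here. The receptor chains and lists were chosen with earlier results of these data known.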

Additional observations from a re-analysis of the deposited data

How the results depend on the processing

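Of 840 alternative values of the 10 chains, 771 kept their direction and side of the threshold, 27 lost and 16 gained a call, and 26 changed sign. The cause was not tested. All 150 alternative values of the partner ratios kept their sign. They include values on the TPM scale, which cannot change a ratio within a culture, and with other pseudocounts, which hardly change it at these levels. The rise of Il12rb2 with MEKi over TCR was called in 14 of 14 alternatives (1.38 to 1.76). Chains called numbered 3 (TPM scale) and 1 (quantile) for TCR against unstimulated, 2 for MEKi against TCR on the TPM scale (10 at an adjusted p under 0.05) and 1 to 2 without 1 culture, 0 for MEKi against PI3Kdi with a pseudocount of 1 or treat and 0 to 1 without 1 culture, 1 for PI3Kdi against unstimulated on the TPM scale, and, for MEKi against unstimulated, 1 with treat, 2 on the TPM scale and 2 to 3 without 1 culture. Signs changed on the TPM scale for Il10ra with TCR (-0.23), for Il18r1 (0.047), Il10ra (0.087) and Il4ra (0.16, and 0.042 with quantile) in PI3Kdi against TCR, for Il2rg in MEKi against TCR (0.23, and 0.16 with quantile), for Il2rb in MEKi against PI3Kdi (0.078, and 0.076 with quantile), and for Il2rg (-0.016) and Il10ra (-0.14) in PI3Kdi against unstimulated. Leaving out 1 culture changed the sign of values near 0: in PI3Kdi against TCR those of Il2ra (-0.0013 to 0.0496), Il21r (-0.027 to 0.073) and Il4ra (-0.075 to 0.045), in MEKi against TCR those of Il18rap (-0.026 to 0.15) and Il21r (-0.0047 to 0.071), in MEKi against PI3Kdi those of Il2rb (-0.035 to 0.023) and Il21r (-0.039 to 0.061), and in PI3Kdi against unstimulated that of Il12rb2 (-0.19 to 0.0068).

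The replicate block moved 1 member call, Il12rb1 in PI3Kdi against TCR (adjusted p = 0.0207, from 0.0502), and changed no other. All genes called numbered 2202, 207, 385, 341, 1608 and 1478 in TCR against unstimulated, PI3Kdi against TCR, MEKi against TCR, MEKi against PI3Kdi, PI3Kdi against unstimulated and MEKi against unstimulated. With a pseudocount of 1 they were 1405, 90, 201, 150, 979 and 873, and with treat 1174, 27, 106, 64, 803 and 739. The share of called genes that were higher went on the TPM scale from 44.4% to 22.1%, 26.6% to 52.7%, 28.1% to 61.5%, 44.9% to 54.3%, 49.1% to 32.9% and 51.8% to 39.7% in the same order. By the rough estimate of depth, Il10ra had the fewest reads of the 10 chains, 440 to 930 per culture.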

Other observations

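The genes next to the receptor chains on the chromosome were read in the same fit. C1qtnf6, the next gene above Il2rb, fell with TCR as Il2rb did, from 12.1 to 3.77 FPKM (log2 fold change -1.65, adjusted p = 9.09e-09 by limma), and was 4.47 with PI3Kdi and 5.08 with MEKi. Nsmce1, below Il4ra, also fell with TCR (log2 fold change -0.97, adjusted p = 6.41e-06), from 29.9 to 15.2 FPKM. Gtf3c1, above Il21r, was at 17.6 FPKM in unstimulated CTL and 15.3 with TCR, while Il21r rose. Gadd45a, below Il12rb2, rose with TCR from 0.80 to 1.69 FPKM with overlapping cultures (log2 fold change 1.19, adjusted p = 0.0112), while Il12rb2 fell. Med12, above Il2rg, fell (log2 fold change -0.24, adjusted p = 0.0228), while Il2rg rose. Tmprss6 next to Il2rb, Gm614 next to Il2rg and Arrdc2 next to Il12rb1 did not pass the test with TCR. Mast3, next to Il12rb1, was lower with MEKi than with TCR, at 13.5 and 17.6 FPKM (log2 fold change -0.39, adjusted p = 0.00701). Upstream of Il18r1, Il1rl1 rose with TCR by 2.95 on the log2 scale, and was lower with PI3Kdi (log2 fold change -0.81, adjusted p = 0.000949) and with MEKi (log2 fold change -0.58, adjusted p = 0.00627) than with TCR, whereas Il18r1 was higher with MEKi. These neighbours were looked at after the values of the receptor chains were seen.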
